A study of Mus musculus and Rattus norvegicus with 11 samples.

Results

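The cells described here were peripheral nerve leukocytes that the depositors named CD8 in the 3 NOD libraries labelled as lacking ICAM-1. They were chosen by that deposited name and by the library number carried in each barcode, and they numbered 393, 446 and 455 in libraries 1, 2 and 3, in all 1294 of 15672 annotated mouse cells. They made up 25.5%, 25% and 25.2% of the annotated cells of their libraries, a mean of 25.3% ± 0.26 (SD, n = 3 libraries). The deposited names are taken here to rest on expression. The study profiled sciatic nerve and brachial plexus cells by droplet 3′ RNA sequencing in 3 libraries of NOD mice whose label is spelled ICAM-1-1/-NOD, 3 of NOD control mice and 3 of C57BL/6 mice (its rat libraries were not used here). NOD mice are inbred and develop autoimmune disease spontaneously; the design text uses both NOD groups for chronic autoimmune neuritis, an inflammation of nerves, and the C57BL/6 mice as a healthy state. Nerves of perfused mice were digested, myelin was removed, and viable cells were collected by sorting. The labels give neither age nor sex nor the construction of the allele, and do not say whether a library is 1 animal or a pool. The p-values between groups below therefore measure the spread between libraries, which may be technical. Those of splits within libraries measure how the difference varied from library to library, which may be technical too. The C57BL/6 libraries hold no CD8 name, since their T cells carry the single name TC (333 cells), and the NOD control libraries 1, 2-1 and 2-2 hold 3, 22 and 23 CD8-named cells.

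Cytotoxic T cells carry a T cell receptor with its CD3 chains and the CD8 co-receptor, a dimer of the products of Cd8a and Cd8b1 that binds class I major histocompatibility molecules. Natural killer (NK) cells lack that receptor, are marked by the activating receptor encoded by Ncr1 (NKp46), and read class I molecules through lectin-like receptors of the Klra (Ly49), Klrc (NKG2), Klrd1 (CD94) and Klrk1 (NKG2D) families. CD94 pairs with NKG2 proteins, and the product of Klre1 is another lectin-like receptor that NK cells carry. Activated CD8 T cells can also take up NK receptors, most often CD94 with NKG2A (Klrc1) and NKG2D, and both cell kinds share granzymes, perforin and the chemokine CCL5.

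The CD8-named cells held a median of 1372, 1121.5 and 1008 UMIs (unique molecules counted) in libraries 1, 2 and 3, and their summed counts were 593244, 564299 and 512952 UMIs. Pooled over the libraries, their median of 1138.5 UMIs lay above those of the CD4-named (855) and B cells (BC, 1021) and below those of the cells named nmSC (1371) and MC (myeloid, 2351). Depth therefore differs between types, and shares of cells with a UMI are given as counted and also after each cell was thinned to 500 UMIs, which left out 5 CD8-named and 40 CD4-named cells. Of the barcode sequences, 11 occurred in more than 1 of the 3 libraries; 4 CD8-named cells carried one, and none of these sequences was CD8-named in more than 1 library. The median mitochondrial share of CD8-named cells was 1.97%, 2.08% and 2.18%. Levels are given as CPM, the usual scaling of a gene's UMIs to a fixed total of all UMIs of the same cells. Markers of other cells were low: 10 B cell genes summed to 248 ± 44.8 CPM in CD8-named cells, against 10718 ± 1538 CPM in B cells, and 10 myeloid genes to 463 ± 73.2 CPM, against 25680.2 ± 2142 CPM in MC (SD, n = 3). The cells named nmSC summed to 143004 CPM over 10 fibroblast genes and 630.1 CPM over 10 Schwann genes, so they are used here by their name only, as cells that are neither T nor NK.

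Icam1, the gene named by the label (chromosome 9, 21015985 to 21028817, GRCm38), was detected in these cells at 361, 354 and 345 CPM, with 591 UMIs in all. CD4-named cells of the same libraries had 229, 247 and 211 CPM and B cells had 100.3, 89.1 and 127 CPM, so the CD8-named cells were the highest of the 3 in every library. A UMI of Icam1 was present in 32.1% of the CD8-named cells, 16.4% of the CD4-named cells and 9.69% of the B cells (13.9%, 9.46% and 4.05% at 500 UMIs). Icam1 transcript therefore goes against a reading of the label as loss of the RNA, and a 3′ count tests neither the allele nor the protein. For that reason the libraries are called here libraries labelled Icam1 knockout.

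The 5 given markers all had a higher CPM in the summed CD8-named cells than in the summed CD4-named cells. Cd8a (chromosome 6, 71373427 to 71379173), the alpha chain of the co-receptor, had 609, 604 and 727 CPM in CD8-named cells, against 77.6, 74.3 and 90.6 CPM in CD4-named cells and 11.7, 19.8 and 26.9 CPM in B cells. Klrc1, the NKG2A receptor gene, had 546, 523 and 678 CPM in CD8-named cells, against 50.3, 30.3 and 60.9 CPM in CD4-named cells. Klra7, a Ly49 receptor gene, had 226, 266 and 159.9 CPM in CD8-named cells, against 10.1, 9.09 and 4.69 CPM in CD4-named cells. Each of the 3 genes was at least 2-fold higher in CD8-named cells in every library, as were 2.37% of the 3335 genes above 50 CPM in either set. Klre1, the gene of another lectin-like NK receptor, had 373, 347 and 394 CPM in CD8-named cells, against 18.7, 31.8 and 37.5 CPM in CD4-named cells. Ccl5, a chemokine of activated T and NK cells, was the most abundant of the 5 at 37460.1, 37831 and 39854 CPM in CD8-named cells, against 2002, 1940.1 and 2459 CPM in CD4-named cells. The NK receptor genes Klre1, Klrd1, Klrk1, Klrc1 and Klra7 lie together on chromosome 6, from 129577905 (start of Klre1) to 130233322 (end of Klra7, GRCm38). Since the names are taken to rest on expression, these differences describe the name and carry no test.

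Cell by cell, 41% ± 2.65 of the CD8-named cells had a Cd8a UMI (SD, n = 3), against 5.21% of CD4-named cells, 1.8% of B cells and 1.85% of cells named nmSC. At 500 UMIs per cell the shares with Cd8a were 24.6% of CD8-named, 2.6% of CD4-named and 1.08% of B cells. Klrc1 was found in 39.2% of CD8-named cells, against 3.25% of CD4-named cells and 0.456% of B cells, which should lack it. Klrd1, the CD94 gene, reached 48.4% of CD8-named cells, against 8.63% of CD4-named and 3.68% of B cells. Ncr1 and Klra7 were found in a minority, 12.5% and 9.65% of CD8-named cells, against 1.66% and 0.594% of CD4-named cells and 0.559% and 0.806% of B cells. Ccl5 was found in 97.6% of CD8-named cells, but also in 66.5% of CD4-named cells, 63.1% of B cells and 61.2% of nmSC-named cells. B cells and nmSC-named cells should lack it, and at 500 UMIs their shares (38.3% and 33.6%) were not far below the 48.1% of CD4-named cells, so a single Ccl5 UMI does not set a CD8-named cell apart. Its CPM in CD8-named cells was 18 times that in CD4-named cells. In the heat map of thinned shares, CD8-named cells stood highest among the 5 types shown for each of the 5 markers.

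**Figure D1:**
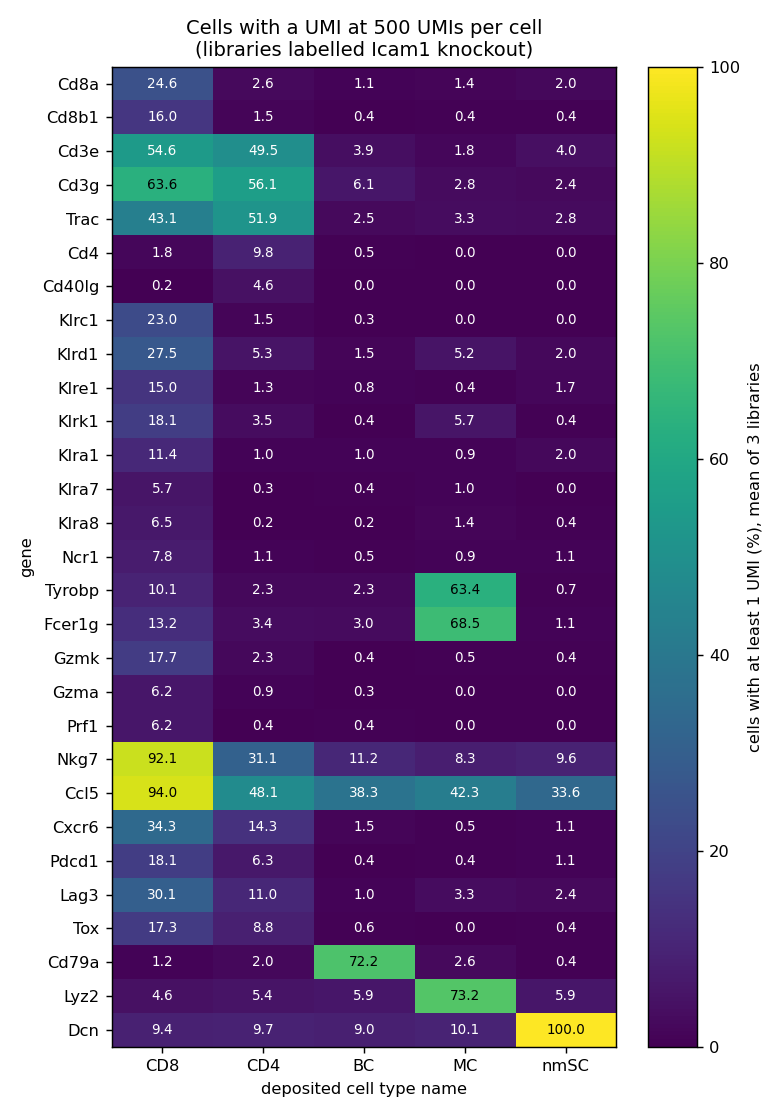
Share of cells with at least 1 UMI of each gene after thinning every cell to 500 UMIs, as the mean of the 3 libraries labelled Icam1 knockout, for the deposited names CD8, CD4, BC (B cells), MC (myeloid cells) and nmSC. CD8-named cells hold the highest share of Cd8a (24.6%) and Klrc1 (23%), whereas Ccl5 is also found in 38.3% of B cells.

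The T cell receptor genes were shared with the CD4-named cells. Cd3e, a CD3 chain, averaged 1761 ± 40.3 CPM in CD8-named cells and 1542 ± 105 CPM in CD4-named cells, and Trac, the alpha chain constant region, averaged 1315 ± 137 CPM in CD8-named cells and 1714 ± 122 CPM in CD4-named cells (SD, n = 3). Of the 11 genes of the T cell receptor and CD3 list, none was at least 2-fold higher and 1 (Cd5) was at least 2-fold lower in all 3 libraries. Over all 3335 genes above 50 CPM in either set, 2.37% were at least 2-fold higher in CD8-named than in CD4-named cells in all 3 libraries and 2.46% at least 2-fold lower, with a median log2 ratio of -0.04. Cd4 itself averaged 39.2 ± 16.2 CPM in CD8-named cells and 237 ± 16.4 CPM in CD4-named cells. Of the 6 helper and regulatory genes above that level, 5 were lower in CD8-named cells (Cd4, Cd40lg, Icos, Tnfrsf4, Ikzf2; list median log2 ratio -2.01). Tnfrsf4, the OX40 co-stimulatory receptor gene, averaged 65.9 ± 14.1 CPM in CD8-named cells and 924 ± 31.5 CPM in CD4-named cells.

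NK receptor, granule and chemokine genes were among those higher in CD8-named cells than in CD4-named cells. All 14 NK receptor genes above 50 CPM in either set were at least 2-fold higher in CD8-named cells in every library (list median log2 ratio 3.38). The list holds 25 genes, 1 of which has no entry in the matrix. Of the 14, only Klrd1 (136 CPM) and Klrk1 (87.4 CPM) were above 50 CPM in CD4-named cells. The others entered through the CD8-named cells, so the count and the list median are partly set by that floor. The other lists were taken at the same floor. The ratios of mean CPM were largest for 3 Ly49 genes, Klra8 (55.6), Klra4 (50) and Klra7 (27.3), and stood at 12.7 for Klre1, 12.3 for Klrc1 and 10.3 for Klrc2. Of 10 cytotoxic granule genes, 7 were higher, among them Gzma (24.4 times), a granzyme, Prf1 (10.1 times), perforin, Gzmk (6.58 times) and Nkg7 (5.86 times), a granule membrane protein. Gzma had 512, 354 and 339 CPM in CD8-named cells, against 17.3, 21.2 and 10.9 CPM in CD4-named cells, and library 1 was the highest. Of 7 secreted factors, Ccl5, Ccl4, Ccl3 and Xcl1 were higher and Tnfsf8, the CD30 ligand, was lower; Ccl4 averaged 2233 ± 171 CPM in CD8-named cells and 421 ± 126 CPM in CD4-named cells. The reads came from NOD mice and were counted on mm10, a C57BL/6 assembly, while Ly49 genes vary in number and sequence among strains. Within the mm10 gene models, 39.6% of the 50-base words in the last 500 bases of the transcripts of Klra9 occur in another receptor gene. The share was 13.1% for Klra8, 16.3% for Klrc1, 10.8% for Klrc2 and 4.66% for Klra4, so single values of these genes are uncertain. It was 0% for Klra7, Klrd1, Klre1, Klrk1 and Ncr1. The check compares mm10 models with each other. It cannot show whether reads of other NOD Ly49 genes were counted as Klra7 or as another Klra gene.

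Some inhibitory receptor genes were higher in CD8-named cells, Ctla4 was not, and some genes of naive and memory cells were lower. Pdcd1, the PD-1 gene, had 428, 447 and 493 CPM in CD8-named cells, against 206, 177 and 175 CPM in CD4-named cells. Lag3, another inhibitory receptor gene, had 957, 849 and 881 CPM in CD8-named cells, against 407, 358 and 361 CPM in CD4-named cells. Of 10 checkpoint and exhaustion genes above 50 CPM, 4 (Pdcd1, Lag3, Havcr2, Nr4a2) were at least 2-fold higher in every library and 0 at least 2-fold lower (list median log2 ratio 0.55). Tox, a transcription factor of chronically stimulated T cells, averaged 363 ± 59.8 CPM in CD8-named cells and 187 ± 13.2 CPM in CD4-named cells, and Ctla4 ran the other way at 289 ± 23.9 CPM in CD8-named cells and 535 ± 40.7 CPM in CD4-named cells. Cxcr6, a homing receptor of tissue T cells, averaged 1115 ± 147 CPM in CD8-named cells and 431 ± 52.1 CPM in CD4-named cells. Of 10 naive and memory genes, 6 were lower (Ccr7, Lef1, Il7r, Klf2, S1pr1, Dapl1; list median log2 ratio -1.55). Ccr7, which guides cells to lymph nodes, averaged 55.5 ± 19.5 CPM in CD8-named cells and 306 ± 30.8 CPM in CD4-named cells. Against B cells, where 10.4% of 3481 genes were at least 2-fold higher and 8.07% at least 2-fold lower, all 11 T cell receptor and CD3 genes were higher in CD8-named cells and all 10 B cell genes lower. The haemoglobin genes had among the lowest ratios to CD4-named cells, but Hba-a1, a red cell globin, was at 32, 30.1 and 50.7 CPM in CD8-named cells, against 4791, 39.4 and 2354 CPM in CD4-named cells, so that distance stood in libraries 1 and 3.

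**Figure D2:**
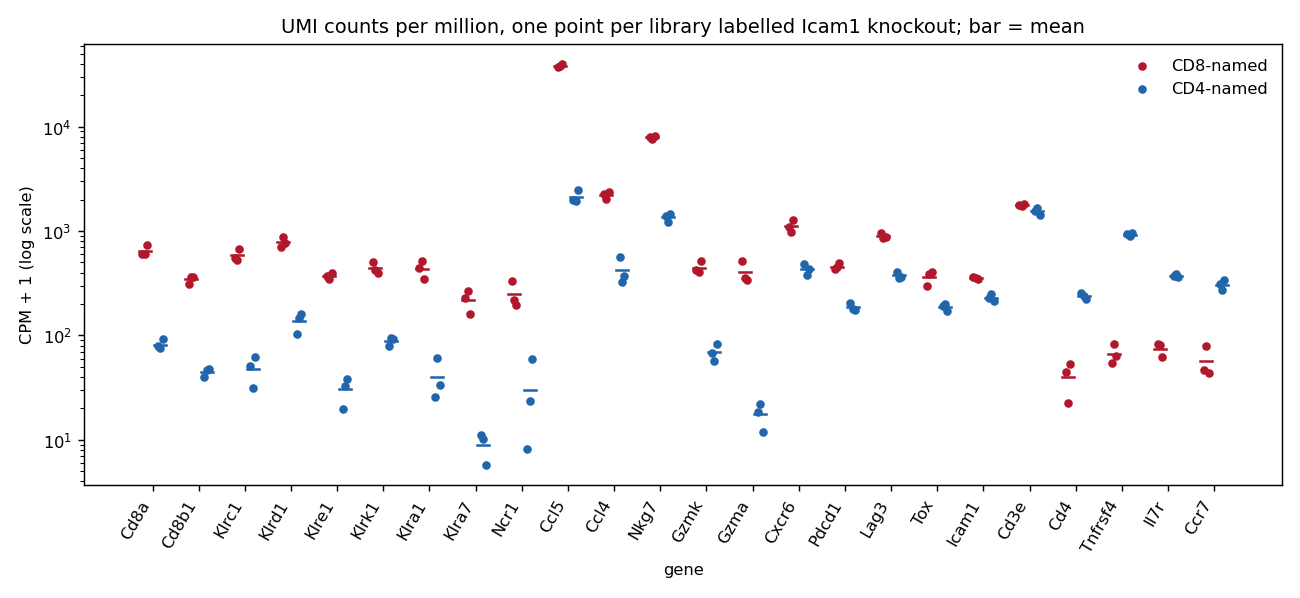
CPM plus 1 (log axis) of 24 genes in CD8-named cells (left of each pair) and CD4-named cells (right), 1 point per library labelled Icam1 knockout, with a bar at the mean. Ccl5 stands at 38382 CPM in CD8-named cells and 2133 CPM in CD4-named cells, while Cd3e is near the same level in both.

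Within the CD8 name, transcripts of the co-receptor and of Ncr1 were almost never found in 1 cell. Of the 1294 cells, 638 (49.3%) had a Cd8a or Cd8b1 UMI and none of Ncr1, 153 (11.8%) had Ncr1 and neither co-receptor gene, 7 (0.541%) had both, and 496 (38.3%) had neither. In libraries 1, 2 and 3 the co-receptor cells without Ncr1 made up 49.4%, 48.9% and 49.7% of the CD8-named cells, and the Ncr1 cells without co-receptor 15.0%, 10.3% and 10.5%. The 4 sets had median depths of 1166.5, 1346, 1409 and 1051 UMIs, the cells with neither gene being the shallowest. A CD3 UMI (Cd3d, Cd3e or Cd3g) was present in 639 of 645 co-receptor cells (99.1%), against 83.1% of the 649 other cells, and in 58.8% of the 160 Ncr1 cells, against 95.6% of the 1134 others. At 500 UMIs the CD3 shares were 95.2% with and 75.8% without a co-receptor UMI, and 44% with and 85.7% without an Ncr1 UMI. The split by Ncr1 was chosen after its values were seen, and the sets it makes are described without a test.

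NK receptor transcripts were common on both sides, but of different kinds. Of the co-receptor cells, 77.5% (500 of 645) had a UMI of the NK receptor list, against 88.3% (573 of 649) of the cells without a co-receptor UMI; at 500 UMIs these shares were 62.1% and 73.1%. Klrc1 was found in 49% of co-receptor cells, against 29.4% of the rest, and Klre1 in 24.5%, against 31.9%. A UMI of any Klra gene was found in 7.29% of co-receptor cells, against 41.9% of the rest, and Klra7 in 0.93% (6 cells), against 18.2% (118 cells). The order held in each of the 3 libraries for these 4 measures. At 500 UMIs the shares were 29.3% against 19.9% for Klrc1, 11.3% against 16.9% for Klre1 and 3.4% against 27.4% for any Klra gene. By Cd8a alone, Klrc1 was found in 268 of 529 cells with a Cd8a UMI (50.7%), against 31.2% of the 765 without, Klrd1 in 41.4% against 53.2%, and Ncr1 in 1.13% against 20.1%. The number of different receptors per cell differed too, with a median of 2 in the 645 co-receptor cells and of 7 in the 160 Ncr1 cells. Of the Ncr1 cells, 131 had 4 or more receptors, whereas 145 of the co-receptor cells had 0 and 108 had 4 or more. These counts come from full depth, and Ncr1 is itself on the list.

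The remaining genes of the set defined by co-receptor and the set defined by Ncr1 are shown side by side. Klra7 had 26.3, 7.24 and 0 CPM in cells with a co-receptor UMI only, against 1031, 1082 and 796 CPM in cells with Ncr1 only. Tyrobp and Fcer1g, the signalling adaptors of activating NK receptors, averaged 36.5 ± 3.88 and 61.4 ± 20.8 CPM in co-receptor cells, against 1549 ± 310.1 and 2002 ± 304 CPM in Ncr1 cells. Trac had 1769, 1651 and 1744 CPM in co-receptor cells, against 140.1, 199 and 203 CPM in Ncr1 cells. B cells of the same libraries, which should lack it, averaged 66.8 CPM. How much of the Trac and CD3 counted in the Ncr1 cells is their own was not tested. Xcl1, a chemokine that draws dendritic cells, averaged 88.7 ± 66.1 CPM in co-receptor cells, against 2586 ± 274 CPM in Ncr1 cells, and Ccl5 ran the other way with 51749 ± 2118 CPM in co-receptor cells, against 7267 ± 889 CPM in Ncr1 cells. Granzymes divided as well. Gzmk averaged 588 ± 31.3 CPM in co-receptor cells, against 58.1 ± 38.2 CPM in Ncr1 cells, and Gzma 117 ± 27.4 CPM, against 1773 ± 246 CPM. Pdcd1 had 649.9, 677 and 697 CPM in co-receptor cells, against 40, 28.5 and 0 CPM in Ncr1 cells. The 496 cells with neither transcript lay between for Trac (1173 ± 257 CPM), Pdcd1 (305 ± 41 CPM), Xcl1 (753 ± 155 CPM) and Klra7 (215 ± 104 CPM).

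**Figure D3:**
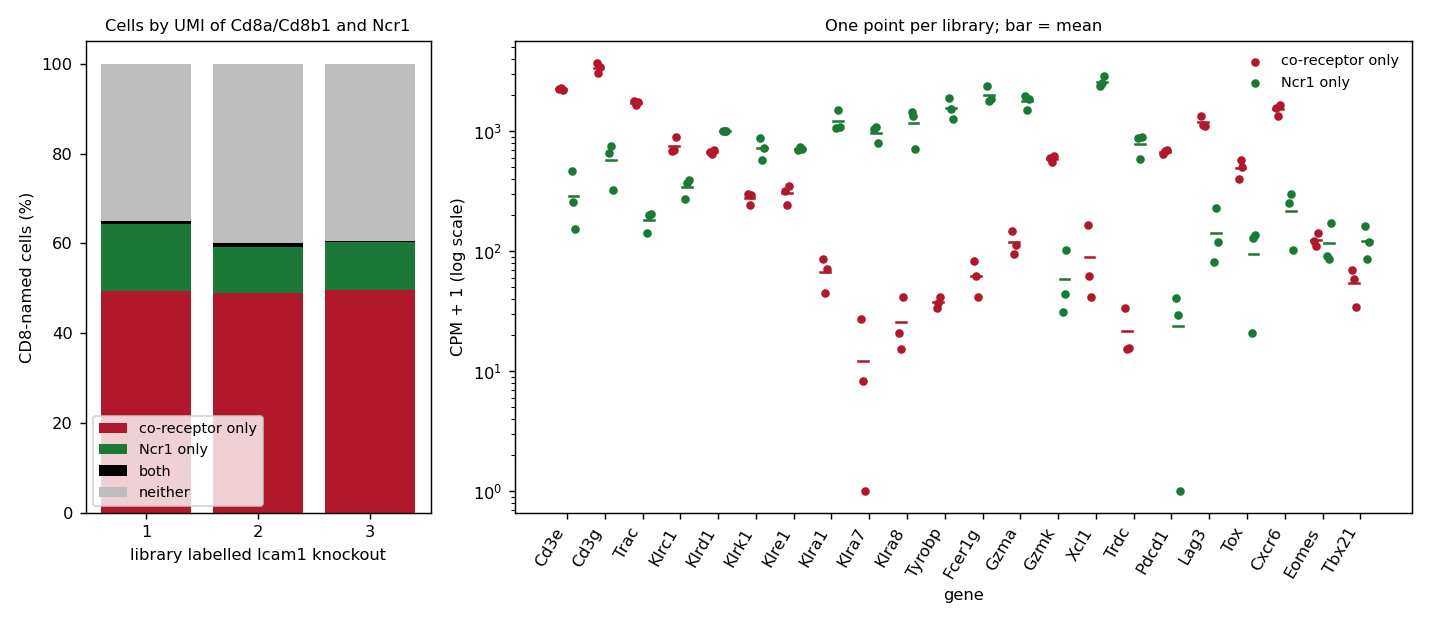
Left, percent of the CD8-named cells of each library labelled Icam1 knockout by UMIs of the co-receptor (Cd8a or Cd8b1) and of Ncr1; right, CPM plus 1 (log axis) of 22 genes in co-receptor cells without Ncr1 (left of each pair) and Ncr1 cells without co-receptor (right), 1 point per library with a bar at the mean. The black band of cells with both is 0.541% over the libraries, and Klra, Tyrobp and Fcer1g points lie higher in the Ncr1 cells in every library.

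To test which other genes go with the co-receptor, counts of cells with a Cd8a UMI (173, 174 and 182) were compared with those of cells without one (220, 272 and 273) in the same libraries, leaving Cd8a itself out. Of 4079 genes tested with edgeR's quasi-likelihood test and Benjamini-Hochberg adjustment, 487 (11.9%) passed the threshold of 0.05, 201 higher (4.93%) and 286 lower (7.01%) in the cells with Cd8a. Cells with Cd8a were somewhat deeper, with a median of 1412 against 1265.5 UMIs in library 1, and 15.2% of the cells without Cd8a had a Cd8b1 UMI. The medians were 1140.5 against 1084.5 UMIs in library 2 and 1015.5 against 1003 in library 3. The count was 282 without library 1 and 98 without library 2 (26 higher, 72 lower), 91 with DESeq2 (31 higher, 60 lower), 106 at 500 UMIs per cell and 275 when the cells were split by CD3 UMIs in place of Cd8a. At 500 UMIs the cells were split anew by the thinned counts. That left 96, 101 and 121 cells with a Cd8a UMI and 1775 genes tested, so it changes the sets as well as the depth. All CPM of this comparison are scaled by TMM factors. Cd8b1, the partner chain, rose, with 586, 661 and 574 CPM in cells with Cd8a, against 122, 220.2 and 255 CPM in cells without (log2 fold change 1.63, SE 0.14, adjusted p = 2.35e-17).

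T cell receptor genes rose with Cd8a: of 11 tested, 9 were higher and 1, Trbc1, was lower (list median log2 fold change 0.67, against 0.00 over all genes tested). Cd3e averaged 2496 ± 103 CPM in cells with Cd8a and 1492 ± 105 CPM in cells without (edgeR log2 fold change 0.75, adjusted p = 1.56e-15). Trac averaged 1928 ± 68.1 CPM in cells with Cd8a and 1058 ± 231 CPM in cells without (edgeR log2 fold change 0.88, adjusted p = 4.02e-16). Trbc1, one of the beta chain constant regions, had an edgeR log2 fold change of -0.29 (adjusted p = 0.0335), which was 0.34 (adjusted p = 0.312) under the split by CD3.

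NK receptors fell for the most part. Of the 20 tested, 17 were lower and 2 higher in cells with Cd8a (list median log2 fold change -2.97). Without library 2, 12 were lower and 1 higher. Some had few UMIs in cells with Cd8a: Klrb1b had 1, 1 and 0 there, against 32, 32 and 13 in cells without. Klra5 had 4, 0 and 0, against 29, 63 and 32. Ncr1 had 2, 9 and 0, against 195, 113 and 99, and Klra7 had 8, 4 and 0, against 126, 146 and 82. Such genes passed the count filter through the cells without Cd8a and could only come out lower. The count and the list median are therefore partly set by the filter, as for other lists with members near 0 UMIs in 1 set. Ncr1 had 7.92, 43.7 and 0 CPM in cells with Cd8a, against 679.7, 366 and 366 CPM in cells without (edgeR log2 fold change -4.82, SE 0.28, adjusted p = 1.48e-28). Klra7 had 31.7, 19.4 and 0 CPM in cells with Cd8a, against 439, 473 and 303 CPM in cells without (edgeR log2 fold change -4.46, SE 0.27, adjusted p = 2.54e-27). For both genes every cell set with Cd8a lay below every set without it, and 25.4% of the 4079 genes had sets that did not overlap. The exceptions were the NKG2 genes: Klrc1 had 713, 797 and 957 CPM in cells with Cd8a, against 502, 424 and 566 CPM in cells without (edgeR log2 fold change 0.72, SE 0.11, adjusted p = 5.60e-08), and Klrc2 rose as well (edgeR log2 fold change 0.48, adjusted p = 0.0107). At 500 UMIs per cell Klrc1 did not pass, and Klrc2 did not pass there, with DESeq2, or without library 2 or 3. Klrd1, whose product pairs with NKG2, fell by 0.34 (edgeR adjusted p = 0.00748) and Klre1 by 0.42 (edgeR adjusted p = 0.0220) on the log2 scale, and neither passed with DESeq2, at 500 UMIs or without library 2. Klrk1, the NKG2D gene, fell by 1.09 on the log2 scale (edgeR adjusted p = 1.47e-11). Of 10 NK lineage genes 7 fell, led by Ncr1, Tyrobp (-3.47), Fcer1g (-3.44) and Xcl1 (-3.28), and Trdc, the delta chain constant region, fell too (-4.48), all log2 fold changes with edgeR; Trdc did not pass when the cells were split by CD3 (adjusted p = 0.289). Car2 (edgeR log2 fold change -4.07, adjusted p = 4.70e-23), a carbonic anhydrase gene, and Spry2 (edgeR log2 fold change -3.96, adjusted p = 5.88e-24), a regulator of growth factor signalling, were among the 10 largest falls by the rule on size. In cells with Cd8a they had only 1, 7 and 4 UMIs (Car2) and 9, 3 and 2 UMIs (Spry2), so the same limit of the count filter holds for them.

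Effector and checkpoint genes divided between the sets. Ccl5 had 56610, 56850 and 53050 CPM in cells with Cd8a, against 27620, 31250 and 35640 CPM in cells without (edgeR log2 fold change 0.82, SE 0.04, adjusted p = 1.03e-31). Among 10 granule genes, Gzmk (log2 fold change 0.87) and Nkg7 (0.54) rose and Gzma (-2.56), Srgn and Ctsw fell, while Prf1 averaged 141 ± 49.7 CPM in cells with Cd8a and 167 ± 56.4 CPM in cells without (edgeR adjusted p = 0.526). Without library 2, 1 granule gene was higher and 1 lower. Of 13 checkpoint and exhaustion genes, 5 rose (Pdcd1, Lag3, Havcr2, Ctla4, Tox) and 2, Cd160 and Nr4a1, fell (list median 0.43). Havcr2 and Ctla4 did not pass with DESeq2, nor Ctla4 and Tox without library 2. Pdcd1 had 705, 685 and 771 CPM in cells with Cd8a, against 265, 359.5 and 355 CPM in cells without (edgeR log2 fold change 1.15, SE 0.12, adjusted p = 1.50e-13). Lag3 had 1453, 1288 and 1237 CPM in cells with Cd8a, against 701, 693 and 739.9 CPM in cells without (edgeR log2 fold change 0.90, SE 0.09, adjusted p = 1.60e-14). Of 8 proliferation genes 7 rose (list median 1.54), with Pclaf, a replication factor, at 123, 253 and 113 CPM in cells with Cd8a, against 0, 9.72 and 59.2 CPM in cells without (edgeR log2 fold change 2.88, SE 0.36, adjusted p = 1.36e-10), and Stmn1, a tubulin regulator, at a log2 fold change of 1.63; without library 2, 0 of the 8 passed with edgeR, and DESeq2 called 3. Of 13 immediate early genes, which cells induce within minutes of stimulation or dissociation, 10 fell (list median -0.71), among them Jun (log2 fold change -1.26) and Fos (-0.86); 2 of 11 fell at 500 UMIs, Jun and Fos not among them. Of 12 interferon-induced genes 4 rose and 0 fell, with Ifi27l2a averaging 1529 CPM in cells with Cd8a and 645 CPM in cells without (edgeR log2 fold change 1.25, adjusted p = 1.68e-22). Of the list, 2 rose without any 1 of the libraries and 1 with DESeq2. Of 8 naive and memory genes 0 rose and 4 fell, among them Tcf7, Klf2 and Id3. Only 1 fell without library 2, 2 without library 3 and 1 with DESeq2. Icam1 averaged 343 ± 29.3 CPM in cells with Cd8a and 419.5 ± 10.5 CPM in cells without (edgeR adjusted p = 0.175), and it passed when the cells were split by Cd8a or Cd8b1 (adjusted p = 0.023).

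The same test was made inside the co-receptor cells, between those with an NK receptor UMI (154, 164 and 182 cells) and those without (42, 58 and 45 cells), leaving the receptor and co-receptor genes out. Of 2317 genes, 0 (0%) passed with edgeR's quasi-likelihood test after Benjamini-Hochberg adjustment; the lowest adjusted p was 0.103, 97 genes had an unadjusted p under 0.05, and DESeq2 called 0. The median SE of a log2 fold change was 0.36, so small changes were not detectable at this depth. Without the filter on low counts 10 genes passed, without library 2 there was 1 and without library 3 there were 6. The list medians for the T cell receptor genes (0.06), granule genes (0.04) and checkpoint genes (0.16) stood beside a median of 0.00 over all genes (log2), but single members lay farther out. Gzma, named after its values were seen, had 225, 144 and 141 CPM in cells with an NK receptor UMI, against 0, 0 and 80.9 CPM in cells without. These were 98 UMIs with and 3 without, a ratio of pooled rates of 8.59 (95% interval 2.86 to 42.4, counting error only; edgeR adjusted p = 0.103), and the gene was higher in 3 of 3 libraries. Prf1 averaged 165.5 ± 74.2 CPM with and 68.3 ± 13.1 CPM without (edgeR adjusted p = 0.726), and Ctla4 490.2 ± 46.3 CPM with and 286 ± 36.7 CPM without (edgeR adjusted p = 0.575), both also higher in 3 of 3 libraries. The 6 genes that passed without library 3 were Gzma, Rgs1 and Lgals1, higher, and Cd74, Nfkbia and Rrm2, lower. Cd74 was also lower past the threshold without library 2 (log2 fold change -1.30) and without the count filter (-0.81). It passed as well with at least 2 NK receptor UMIs (-1.03) and without Klrd1, Klrk1 and Klrg1 on the list (-0.83). It did not pass in the main fit, with DESeq2, with RLE factors, without the library term or without library 1. Nor did it pass at 500 UMIs per cell, or with Scrublet calls or Ncr1 cells left out. Gzma also passed without the count filter. In the plots of both splits, the cells without an NK receptor UMI number 145, against 765 without a Cd8a UMI, so the counts of genes past the threshold are not comparable.

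**Figure D4:**
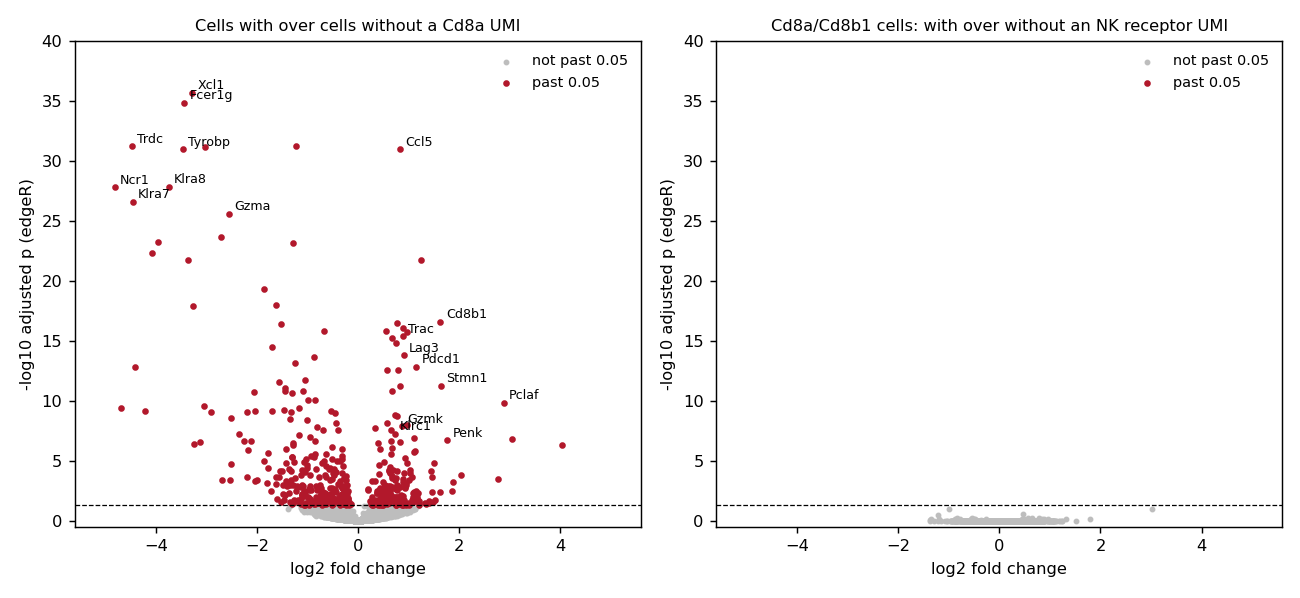
Log2 fold change (x axis) against -log10 of the edgeR adjusted p (y axis) for each gene tested in CD8-named cells, with red points past 0.05 and a dashed line at that threshold. Left, cells with over cells without a Cd8a UMI, where 487 of 4079 genes passed; right, co-receptor cells with over those without an NK receptor UMI, where 0 of 2317 passed.

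Across conditions the CD8 name itself was scarce in NOD control mice: CD8-named cells were 39.8%, 38.4% and 38.3% of all CD4- and CD8-named cells in libraries labelled Icam1 knockout 1, 2 and 3, against 7.14%, 9.69% and 9.54% in NOD control libraries 1, 2-1 and 2-2. Because the name could cover different cells in each, genes were tested over CD4- and CD8-named cells together, in 3 samples labelled Icam1 knockout (987, 1161 and 1187 cells) and 2 NOD control samples (42 cells, and 468 cells of libraries 2-1 and 2-2 summed). With edgeR's quasi-likelihood test and Benjamini-Hochberg adjustment, 960 of 8285 genes (11.6%) passed 0.05, 535 higher (6.46%) and 425 lower (5.13%), with a median log2 fold change of 0.09 over all genes; 44.8% of all genes had groups that did not overlap. Control 1 held 21786 UMIs in these cells, against 352171 in control 2. The count was 1498 without control 1, 267 without control 2 and 304 with DESeq2. Whether a gene differs because more of the cells are CD8-named or because each cell holds more of its RNA cannot be told apart in these sums.

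Cd8a had 348, 343 and 400 TMM-scaled CPM in the samples labelled Icam1 knockout, against 0 and 159.9 CPM in NOD control (edgeR log2 fold change 1.37, SE 0.28, adjusted p = 3.53e-05), a call that DESeq2 did not make, and Cd8b1 had 176, 206 and 200.5 CPM, against 0 and 149.5 CPM in NOD control (edgeR log2 fold change 0.54, adjusted p = 0.215). Of 23 NK receptor genes, 14 were higher and 1 (Klrg1, an inhibitory receptor gene) lower (list median log2 fold change 2.50, or 2.16 with the 4 genes at 0 UMIs in NOD control set to their bound); without control 1 they were 15 and 1, and without control 2 they were 5 and 0. Klrc1 had 301, 277 and 359 CPM in the samples labelled Icam1 knockout, against 0 and 24.3 CPM in NOD control (edgeR log2 fold change 3.82, SE 0.42, adjusted p = 3.86e-17). Klre1 had 196, 191 and 209.8 CPM, against 32.9 and 34.8 CPM in NOD control (edgeR log2 fold change 2.52, adjusted p = 1.77e-08). In both the groups did not overlap, as for 44.8% of all genes. Klrc1 had 0 UMIs in control 1, so it passed the count filter with the help of the samples labelled Icam1 knockout. Among the 23 receptor genes, Klrb1a had 1 UMI in NOD control, Klra9, Klrb1b, Klrb1f and Klrc2 had 2, and Klra7, Klrb1c and Klrk1 had 3. Genes with so few UMIs there passed the count filter through the samples labelled Icam1 knockout. The number of receptor genes called higher is therefore partly set by that filter. Klrk1 had 914 UMIs in the samples labelled Icam1 knockout and 3 in NOD control, a ratio of pooled rates of 31.1 (95% interval 10.6 to 151), where the interval covers counting error only, and Klra7 had 382 and 3 UMIs, a ratio of 13 (95% interval 4.41 to 63.3). Ccl5 had 19780, 19920 and 20440 CPM, against 2071 and 1981 CPM in NOD control (edgeR log2 fold change 3.31, SE 0.39, adjusted p = 1.03e-14). Gzma averaged 207 ± 51.0 CPM in the samples labelled Icam1 knockout and 232 ± 95.2 CPM in NOD control (edgeR adjusted p = 0.221), while Gzmk had 877 UMIs, against 3 in NOD control, a ratio of 29.8 (95% interval 10.2 to 145).

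Of 13 checkpoint and exhaustion genes, 10 were higher and 0 lower in the samples labelled Icam1 knockout (list median 3.71, or 2.63 with the 2 genes at 0 UMIs in NOD control, Havcr2 and Entpd1, set to their bound); 10 were higher without control 1 and 7 without control 2. Pdcd1 had 333, 325 and 339 CPM, against 32.9 and 24.3 CPM in NOD control (edgeR log2 fold change 3.71, SE 0.41, adjusted p = 3.91e-17). Havcr2, the TIM-3 gene, had 300 UMIs in the samples labelled Icam1 knockout and 0 in NOD control. Against 3 counts over NOD control that is at least 10.2-fold higher. Tigit and Tnfrsf9 had 2 UMIs in NOD control, so the number of checkpoint genes called higher is also partly set by the count filter. Icam1 had 312, 319.5 and 289.6 CPM in the samples labelled Icam1 knockout, against 65.8 and 59.1 CPM in NOD control (edgeR log2 fold change 2.36, SE 0.33, adjusted p = 1.46e-10). Pdcd1, Klrc1, Gzmk and Lag3 passed in each alternative that gave them a value, whereas Icam1, Havcr2, Klre1 and Klra7 did not pass without control 2. Of 10 naive and memory genes 4 fell (7 without control 1, 0 without control 2 and 0 with DESeq2). Among them was Lef1, a transcription factor gene of naive T cells (edgeR log2 fold change -2.45, adjusted p = 6.34e-34). It was at 1 UMI in control 1 and of the opposite sign without control 2, when the median over all genes was 2.53. Markers of other cells moved with the groups: all 8 fibroblast genes tested were lower in the samples labelled Icam1 knockout (3 without control 2). Dcn was at 338, 256 and 175 CPM, against 394 and 959 CPM in NOD control, a call not made with DESeq2 or without control 2. The 10 genes of the list summed to between 533 and 828 CPM, against 2800 and 4188 CPM in NOD control. Of 5 Schwann genes 3 were lower, and of 5 red cell genes 4 were higher (3 without control 1, 1 without control 2 and 1 with DESeq2), with sums between 161 and 6143 CPM, against 153 and 321 CPM in NOD control, and Alas2 at 0 there. Their part in the other differences was not tested.

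**Figure D5:**
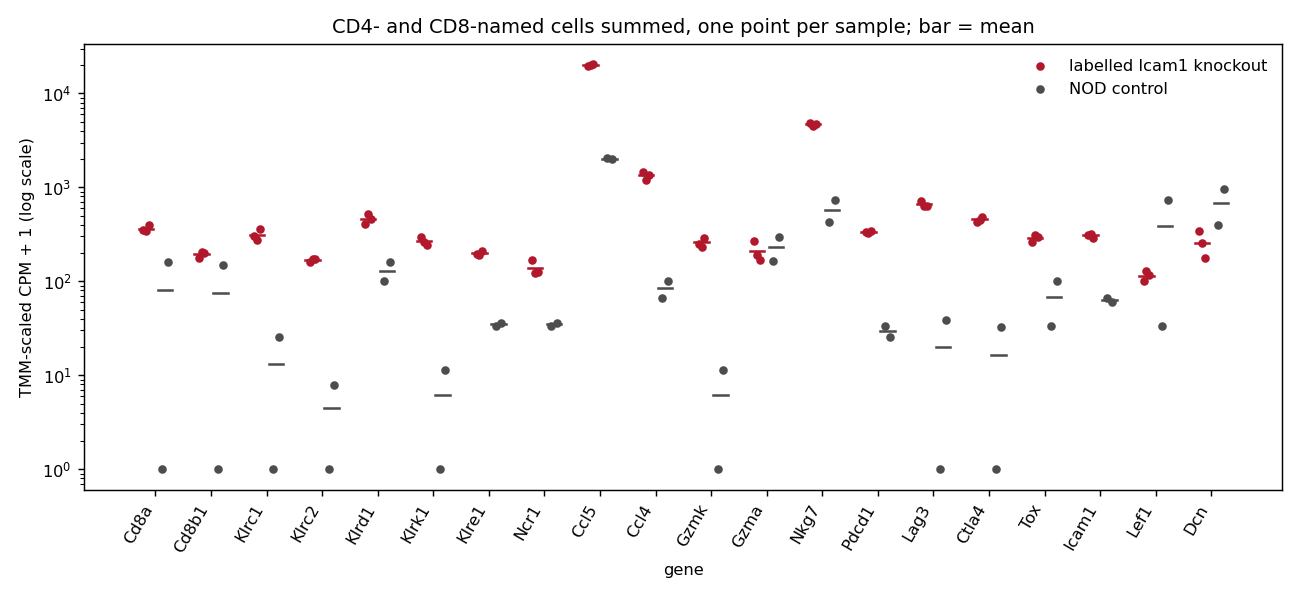
TMM-scaled CPM plus 1 (log axis) of 20 genes in CD4- and CD8-named cells summed, for the 3 samples labelled Icam1 knockout (left of each pair) and the 2 NOD control samples (right), with a bar at the mean. A control point at 1 is a gene with 0 UMIs in control 1, which holds 42 cells; Ccl5 is at 19780, 19920 and 20440 CPM in the samples labelled Icam1 knockout.

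The 48 CD8-named cells of NOD control, pooled because of their number (50578 UMIs), are set beside the 1294 cells labelled Icam1 knockout with exact Poisson 95% intervals and no test. Cd8a was at 644 (interval 606 to 683) CPM in the cells labelled Icam1 knockout, against 158 (interval 68.3 to 312) CPM in NOD control, and Cd8b1 at 343 (interval 315 to 372), against 217 (interval 109 to 389). Ncr1 was at 250.2 (interval 227 to 275) CPM, against 178 (interval 81.4 to 338) in NOD control, and Klrd1 at 781 (interval 739 to 825), against 415 (interval 257 to 635). Pdcd1 was at 454 (interval 423 to 488) CPM, against 39.5 (interval 4.79 to 143) in NOD control, and Lag3 at 897 (interval 852 to 944), against 19.8 (interval 0.501 to 110.2). Gzma was at 406 (interval 376 to 438) CPM, against 1779 (interval 1431 to 2187) in NOD control. These intervals cover counting error only, and no difference between the groups is read from them.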

How the data were processed

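Droplet 3′ (v2 chemistry) UMI counts per gene and cell were deposited by the authors together with a name for each cell; alignment to mm10 and counting used Cell Ranger 3.0.2, per the submitters' processing notes, and the labels name 2 sequencers without assigning libraries. From the deposited counts, UMIs were summed per library and cell set and given as CPM of the set's own total, so totals set the precision. edgeR 4.0.16 (R 4.3.3) fitted the sums with TMM factors, filterByExpr at a minimum count of 10, the quasi-likelihood test and Benjamini-Hochberg adjustment over all genes tested; splits within libraries had library as a term, and groups needed 20 cells per sample. NOD control libraries 2-1 and 2-2 share a number and were summed. DESeq2 1.42.0 was the alternative test, and the fits were tested on simulated data. Cells were thinned to 500 UMIs with a fixed seed. Gene coordinates are those of GRCm38. Doublets were left in: Scrublet (scanpy 1.11.5) marked 9, 8 and 8 of the 1575, 1825 and 1850 barcodes of libraries 1, 2 and 3 (3, 3 and 1 of them CD8-named), too few for a working call.

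The members, gene lists and tests were chosen with earlier results of these data known. Genes named were the 5 given markers and Icam1, up to 4 members of each list with the highest mean CPM and any needed for a count, the 10 largest changes in each direction past 0.05 whose mean log2 CPM reached 6 and whose sign was shared by every library, and the 10 highest and lowest CPM ratios with at least 100 CPM in the higher set; further list members shown cell by cell were chosen after their values were seen. One gene of the lists is counted in its list but its own values are not reported here. No column of per-sample values was set aside (0).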

Additional observations from a re-analysis of the deposited data

How the results depend on the processing

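The number of genes that differed with a Cd8a UMI was 487 and stayed within 1.5 times of that with RLE factors, no filter on low counts, Scrublet calls left out and a split by Cd8a or Cd8b1. It was 91 with DESeq2, 106 at 500 UMIs per cell and 275 when split by CD3, where Trbc1 had a log2 fold change of 0.34 in place of -0.29; the cause was not tested. Without single libraries it ranged from 98 to 382, and all 98 and all 91 calls were among the 487. For the NK receptor split, 0 genes passed, 10 without the filter, 1 with at least 2 NK receptor UMIs and 4 without Klrd1, Klrk1 and Klrg1, and 0 to 6 without single libraries; leaving out cells with Ncr1, an alternative chosen after seeing the data, gave 0. Between groups, 960 genes became 304 with DESeq2, of which 270 were shared, and 267 to 1498 without single samples; Lef1 was at 1.82 on the log2 scale without control 2, against -2.64 without control 1. Both groups number their libraries, but same-numbered samples did not deviate together (correlations 0.00505 and -0.00263), so the numbers do not pair them: with the replicate block 134 genes passed, Ccl5, Cd8a, Klrd1, Klre1 and Ncr1 not among them, and without the block the Cd8a split gave 427 and the NK receptor split 0. At 500 UMIs the share of CD8-named cells with a Cd8a UMI was 24.6% in place of 41.0% (39.5% to 42.0% without single libraries), and the share of co-receptor cells with an NK receptor UMI was 62.0% in place of 77.5% (76.2% to 79.4%). The share of cells named CD8 ranged from 25.1% to 25.4%. With DESeq2 the median over all genes shifted to -0.38 between groups and to -0.11 in the NK receptor split. Depth limits genes with few UMIs in NOD control, whose smaller sample held 21786 UMIs.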
